A study of Caenorhabditis elegans with 4 samples.

Results

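The X chromosome of Caenorhabditis elegans carried 461 of the 2236 sites listed as bound by the transcription factor HLH-30 in late embryos. These members are all peaks of the combined list whose sequence name is X, and no measured value entered the choice. The factor belongs to the helix-loop-helix leucine zipper proteins and is the counterpart in worms of mammalian TFEB. Proteins of this family bind E-box DNA as dimers, and HLH-30 is known for switching on autophagy, lysosome and lipid breakdown genes when food is short. In hermaphrodites, which carry a pair of X chromosomes, a dosage compensation complex loads onto X during embryonic development and lowers its transcription to match that of males. X is also known for holding few genes that are active in the germ line, and for gene density that varies less between centre and arms than on the autosomes.

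The experiment was a chromatin immunoprecipitation with sequencing (ChIP-seq) of strain OP433. It carries the mutation unc-119(ed3) on chromosome III and the transgene wgIs433, introduced by bombardment. The transgene holds hlh-30::TY1 EGFP FLAG together with unc-119(+), which rescues the mutation, and the strain was outcrossed 3 times per the labels. There were 2 anti-GFP ChIP samples and 2 input DNA samples. All 4 came from hermaphrodite late embryos of this strain grown at 20 °C, so every sample carried the transgene, and an untagged strain was not analysed here. Whole embryos were used, so a peak is not assigned to a cell type. Whether the replicates were separate cultures is not stated in the labels, so differences between them may measure technical spread alone. The transgene adds copies of hlh-30 to those of the strain, and the labels give no copy number.

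ChIP replicate 1 listed 157 peaks on X and ChIP replicate 2 listed 309. The peaks were deposited with positions on the WormBase WS180 build and with a value per peak. That value equalled, for all 461, 157 and 309 X peaks, the lower tail of a binomial with probability 0.5 for exactly 1 pair of whole numbers. The larger number of the pair is called ChIP tags here and the smaller one control tags. Enrichment is their ratio, with an exact 95% Clopper-Pearson interval that covers counting error only. The names follow the published method of the PeakSeq caller, and no file states them. Total reads per library are unknown. "Strong" below means a small deposited value, and a peak is held by a replicate where it overlaps a peak of that list by at least 1 bp.

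A typical X site was short and moderately enriched, with a small number of far stronger sites. Median width in the combined list was 386 bp (quartiles 306 and 515), with a range from 45 to 2813 bp. Together the 461 peaks covered 206 kb. Per peak, ChIP tags had a median of 75 (quartiles 56 and 111) and control tags a median of 22 (15 and 30). Median enrichment was 3.5-fold (2.92 and 4.5), and the range ran from 1.72-fold to 18.9-fold. Enrichment reached 5-fold at 87 peaks and 10-fold at 8, and it was under 3-fold at 128. For the replicate 1 list the median on X was 4.25-fold (3.6 and 5.83), and for the replicate 2 list it was 4.71-fold (3.8 and 6.18).

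The strongest site on X lay near its right end. The peak at X 16929363 to 16930509, 1147 bp wide, had 694 ChIP tags and 60 control tags, an enrichment of 11.6-fold (95% interval 8.88 to 15.3). It held 274 tags against 29 in replicate 1 (9.45-fold) and 432 against 29 in replicate 2 (14.9-fold). It was the first of the X peaks in replicate 1 and the second in replicate 2. The peak at X 7951396 to 7952091 came next, with 609 tags against 39 (15.6-fold). It took the first place of X in replicate 2, with 428 tags against 19 (22.5-fold, interval 14.2 to 37.8), and the second in replicate 1, with 211 against 19 (11.1-fold, 6.94 to 18.8). The value was higher in replicate 2, and the difference between the replicates at this site was not tested.

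The highest enrichment on X belonged to a narrower peak. X 15040562 to 15041048, 487 bp wide, held 378 tags against 20, or 18.9-fold (12.1 to 31.3). Its value in replicate 1 was 14.3-fold (7.55 to 30.5). In replicate 2 it was 28.1-fold (14.6 to 62.2), the top value among X peaks in either replicate list. X 3650357 to 3650792 reached 14.2-fold (8.55 to 25.2) with 227 tags against 16, and only 2 X peaks exceeded it in enrichment. X 13144980 to 13145579 reached 13.8-fold (9.58 to 20.6). The replicates ranked that site differently, at rank 9 of X in replicate 1 with 7.65-fold (4.6 to 13.5) and at rank 3 in replicate 2 with 19.9-fold (11.9 to 36.1). X 1446721 to 1447214, on the left arm, reached 12.7-fold (8.30 to 20.3), from 9.75-fold for replicate 1 and 15.7-fold for replicate 2.

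Several further strong sites lay toward the right end. X 14818455 to 14819384 held 523 tags against 57 (9.18-fold, 6.97 to 12.3). X 14824606 to 14825373, a few kilobases beyond it, held 227 against 30 (7.57-fold, 5.16 to 11.5). X 15365009 to 15365884 was enriched 10.2-fold (7.24 to 14.7) in the combined list. In the replicates it was enriched 13.0-fold and 24.6-fold over narrower peaks of 487 and 542 bp, where the combined peak spans 876 bp. Of the 20 strongest X peaks held by both replicates, 9 lay in the 3 rightmost of 10 equal parts of the chromosome and 4 in the 3 leftmost. All 461 combined X peaks split into 154 in the rightmost 3 parts, 164 in the middle 4 and 143 in the leftmost 3. Whether the 20 were spread differently from the 461 was not tested.

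A few strong sites were wide and overlapped more than 1 peak of a replicate. X 6740364 to 6743176, the widest of X at 2813 bp, held 622 tags against 161 (3.86-fold, 3.24 to 4.62). It overlapped 2 peaks of replicate 2 and 1 of replicate 1. The strongest overlapping peak of replicate 1 was enriched 3.13-fold (2.30 to 4.32) and that of replicate 2 6.14-fold (4.55 to 8.42), the only case among the 20 in which the replicates' intervals did not overlap. X 16611282 to 16612921, 1640 bp wide, held 478 tags against 78 (6.13-fold, 4.82 to 7.89) and also overlapped 2 peaks of replicate 2. X 15606615 to 15607778 was enriched 5.33-fold (4.04 to 7.15) and overlapped 2 peaks of replicate 1, of which the stronger held 57 tags against 12. These 3 were the only X peaks of the combined list that overlapped more than 1 peak of a replicate.

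The remaining 8 of the 20 strongest lay between 5.65-fold and 10.8-fold. X 7334172 to 7334732 was enriched 10.8-fold (7.84 to 15.4), X 1093076 to 1093520 9.57-fold (6.21 to 15.4) and X 9838057 to 9838468 9.26-fold (6.01 to 14.9). X 9347490 to 9347900, X 8231717 to 8232236 and X 2071159 to 2071770 were enriched 8.85-fold, 8.22-fold and 8.07-fold. X 10568210 to 10569156 was enriched 7.24-fold (5.50 to 9.67), and X 17479535 to 17480418 5.65-fold (4.2 to 7.75). Replicate 2 exceeded replicate 1 in enrichment at 20 of the 20 peaks, with medians of 7.70-fold for replicate 1 and 12.05-fold for replicate 2. The part of sequencing depth in this difference was not tested. In the replicate 1 list, 17 of these 20 were also among the 20 strongest X peaks, and in the replicate 2 list 19 were.

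**Figure D1:**
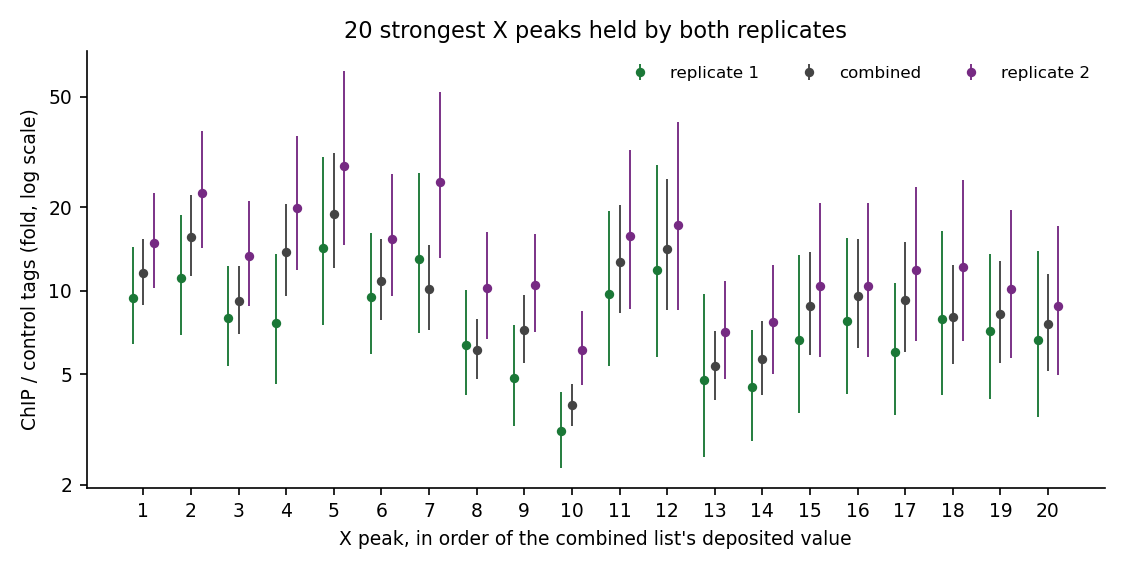
Enrichment (ChIP tags divided by control tags, log scale) of the 20 strongest X peaks held by both replicates, in order of the deposited value of the combined list. Points are the value in replicate 1, the combined list and replicate 2, bars are 95% Clopper-Pearson intervals for counting error, and replicate 2 lies above replicate 1 at 20 of 20.

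Nearly every X site of replicate 1 was found again in replicate 2, which listed about as many further sites. A replicate 2 peak was present at 150 of the 157 X peaks of replicate 1, which is 95.5% (95% interval 91.0 to 98.2), against 93.7% of the replicate 1 peaks of all chromosomes. Conversely, 149 of the 309 X peaks of replicate 2 had a replicate 1 partner, which is 48.2% (42.5 to 53.9), against 45.0% over all chromosomes. Both shares on X were near the level of the whole lists. Among the 10 strongest X peaks of each replicate, 8 were common to both sets of 10. For the 20 strongest the count was 18, and for the 50 strongest it was 38. The 10 strongest of either list all had a partner somewhere in the other.

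In the combined list, X had 149 peaks held by both replicates, 149 held by replicate 2 alone, 6 held by replicate 1 alone and 157 held by neither. The share held by both was 32.3% (28.1 to 36.8), where it was 26.8% over all chromosomes and 25.4% (23.4 to 27.5) on chromosomes I to V. The share held by neither was 34.1% (29.7 to 38.6), where it was 40.7% over all chromosomes and 42.5% (40.2 to 44.8) on I to V. The share held by replicate 2 alone was 32.3% on X and 30.7% over all chromosomes, and that held by replicate 1 alone was 1.30% and 1.74%. Differences in these shares between X and the rest were not tested. The combined list may have been made from the reads of both replicates, so its peaks are not separate evidence. At the 146 X peaks with 1 partner in each replicate, the ratio of combined ChIP tags to the sum of the replicates had a median of 0.999 (quartiles 0.947 and 1.08).

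Sites held by both replicates were the strong ones. They had a median of 135 ChIP tags against 26 control tags, an enrichment of 4.93-fold (quartiles 4.05 and 6.59) and a width of 479 bp. Sites of replicate 2 alone had 74 tags against 24 (3.25-fold, 2.76 and 3.76), and sites held by neither had 55 against 18 (3.05-fold, 2.67 and 3.5) and a width of 308 bp. The 6 sites of replicate 1 alone had a median of 3.62-fold. Control tags per kb of peak differed little between these classes, at medians of 52.2 for both, 56.4 for replicate 2 alone, 58.5 for replicate 1 alone and 56.4 for neither. ChIP tags per kb had medians of 259, 186, 222 and 175 in the same order. Tags also decide whether a site enters a replicate list, so the differences between these classes are a description.

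**Figure D2:**
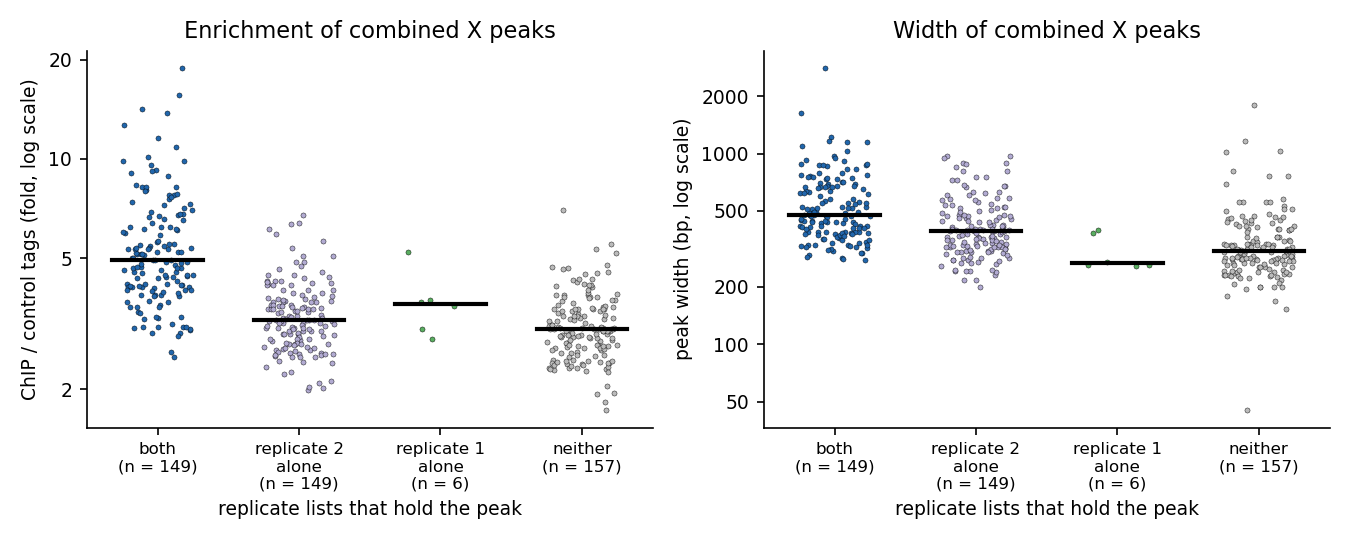
Enrichment (left) and width (right) of the 461 combined X peaks, on log scales, by the replicate lists that hold them. Each point is a peak and each black line a median, and the 149 peaks held by both have the highest medians, 4.93-fold and 479 bp. Tags also decide which lists hold a peak, so these medians are a description.

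The share held by both fell steadily with rank. The first 60 X peaks by deposited value were held by both replicates without exception, and the first that neither held stood at rank 179. Of the 50 peaks at ranks 51 to 100, 43 were held by both, and of the 50 at ranks 101 to 150, 33 were. At ranks 151 to 200 the count was 17 of 50 (34.0%, interval 21.2 to 48.8), at ranks 201 to 300 it was 6 of 100, and beyond that it was 0 of 161, for which the interval reaches 2.27%. The deposited values chose these ranks and also decide whether a site enters a list, so the trend is a description.

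Some sites of a single replicate were nonetheless well above the weakest listed peaks. X 4532026 to 4532471 was the strongest held by replicate 2 alone, with 156 tags against 33 in the combined list (4.73-fold, 3.23 to 7.11) and 109 against 16 in replicate 2 (6.81-fold, 4.01 to 12.3). X 10187948 to 10188895 followed at 3.49-fold (2.60 to 4.75), and X 2852328 to 2853001 at 4.15-fold (2.82 to 6.27). For replicate 1 alone, the strongest were X 5085378 to 5085776 at 3.72-fold (2.37 to 6.04), X 16604548 to 16604806 at 5.23-fold (2.86 to 10.3) and X 10555411 to 10555794 at 2.84-fold (1.87 to 4.42). Among sites that neither replicate held, X 4462410 to 4462694 reached 5.17-fold (2.76 to 10.5) with 62 tags against 12, and X 6764476 to 6764805 reached 4.47-fold (2.52 to 8.42). X 4961037 to 4962836, the second widest peak of X at 1800 bp, was also held by neither and was enriched 2.05-fold (1.60 to 2.65). Since library depth is unknown, absence from a list does not show absence of binding.

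The combined list left out 10 X peaks of the replicates, 1 of replicate 1 and 9 of replicate 2. These are 0.637% and 2.91% of their X peaks, where the shares over all chromosomes were 0.308% and 3.29%. Their enrichments ran from 2.58-fold to 4.33-fold, and none of the 10 overlapped a peak of the other replicate. The single replicate 1 peak among them, X 293244 to 293624, with 62 tags against 24, lies to the left of the first X peak of the combined list.

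Positions agreed closely between replicates at X sites that both held. The replicate peaks of such a site overlap the same combined peak, which by itself limits how far apart their centres can lie. At the 146 combined X peaks with 1 partner in each replicate, the centres of the replicate peaks lay a median of 26.2 bp apart (quartiles 12.1 and 49.8), and 130 of 146 lay within 100 bp. The combined peak was wider than both replicate peaks at 113 of these 146. The median excess was 95 bp over replicate 1 and 39 bp over replicate 2.

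At X sites with nearly the same edges, replicate 2 was more enriched than replicate 1. Closely matched means 1 partner each way and edges that differ by at most 80 bp in all, which held for 61 X peaks. Median enrichment of the 61 was 5-fold for replicate 1 and 6.65-fold for replicate 2. Replicate 2 was higher at 57, equal at 1 and lower at 3. The median ratio was 1.40 (quartiles 1.15 and 1.62). At 219 matched peaks of chromosomes I to V it was 1.38 (quartiles 1.15 and 1.62), and replicate 2 was higher at 200. Median ChIP tags on X were 52 in replicate 1 and 68 in replicate 2, with medians of 11 and 10 control tags. Control tags were equal at 28 of the 61 and differed by at most 2 at 61 of 61. Whether both replicates were compared with the same control reads was not tested.

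**Figure D3:**
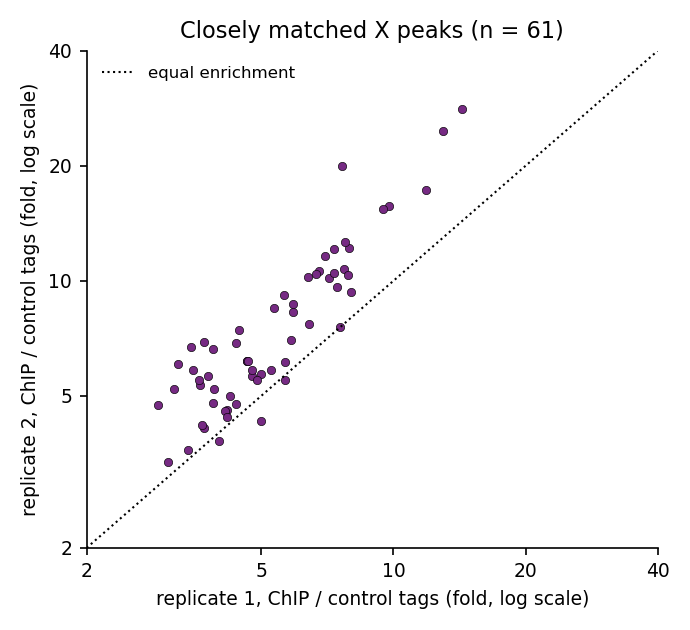
Enrichment in replicate 1 (horizontal) and replicate 2 (vertical) at the 61 closely matched X peaks, both as ChIP tags divided by control tags on log scales. The dotted line marks equal enrichment, and 57 of the 61 points lie above it.

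Sites that both replicates listed had broadly similar ranks in the 2 lists, and peaks without a partner do not enter these values. Over the 150 replicate 1 X peaks with a partner, −log10 of the deposited values had a Spearman's rho of 0.72 and a Pearson's r of 0.92, and enrichment had 0.76 and 0.88. These are descriptions across peaks of 2 libraries, which are not independent replicates and which may share control tags, so no p is given.

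Peaks were spread along the whole of X, and none of 10 equal parts of it passed a test for more or fewer peaks. X was taken to run to 17643047, the end of its last listed peak, and was divided into 10 equal parts of 1.76 Mb. The combined list had 45, 47, 51, 41, 48, 40, 35, 57, 53 and 44 peaks in these parts, from left to right. The lowest count was in part 7 (7.59% of the X peaks, 95% interval 5.34 to 10.4) and the highest in part 8 (12.4%, 9.50 to 15.7), which adjoins it. An exact binomial test of each part against an even share, with Benjamini-Hochberg adjustment over the 10, called 0 parts (smallest adjusted p = 0.512), and 0 had an unadjusted p under 0.05, the smallest being 0.0876. The same test over the 60 such parts of all 6 chromosomes called 5, or 8.33%, of which 2 lay on chromosome II, 1 on III, 2 on V and 0 on X. The test treats peaks as independent, and a p above the threshold does not show that the spread is even.

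**Figure D4:**
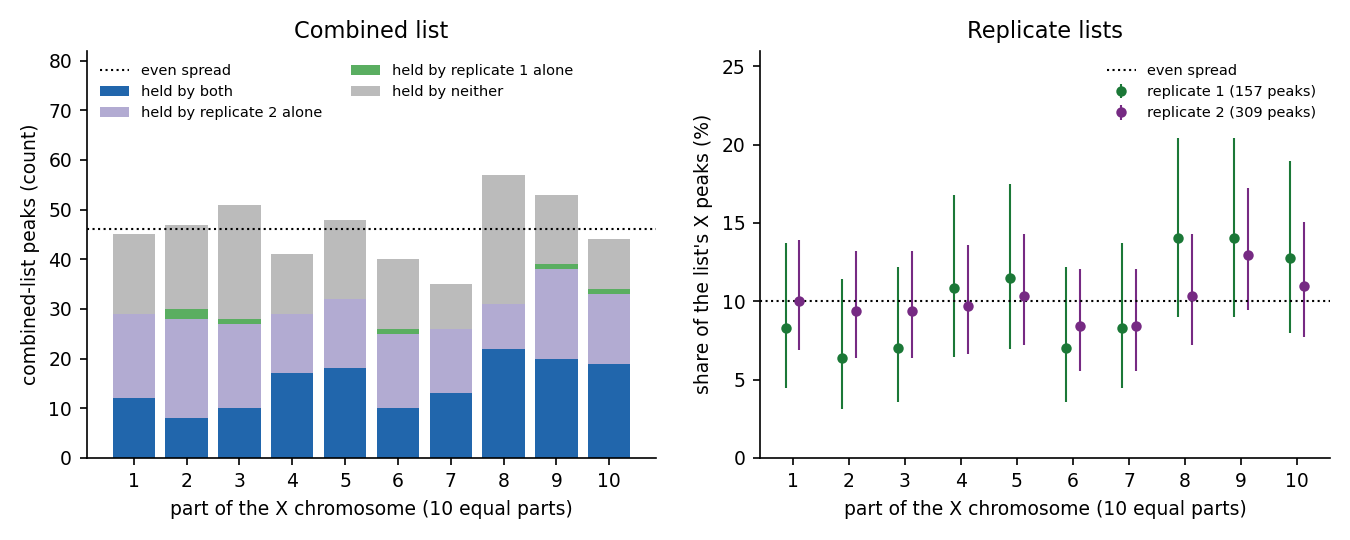
X peaks in 10 equal parts of the chromosome, as counts in the combined list split by the replicate lists that hold them (left) and as shares of each replicate's X peaks with 95% Clopper-Pearson intervals (right). Combined counts run from 35 to 57 around the dotted line of an even spread.

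In 1-Mb steps, counts on X ran from 17 to 37 peaks. The fullest step lay between 14 and 15 Mb, with 37 peaks of which 13 were held by both replicates. The step between 13 and 14 Mb had the most peaks held by both, 16 of 32. The step between 11 and 12 Mb had 17 peaks, as did the last and incomplete one. Among the 10 equal parts, median enrichment lay between 3.08-fold, in part 6, and 4.10-fold, in part 1. Median ChIP tags were 78.5 in part 6 and 68 in part 1, and median control tags per kb were 59.5 and 46.6. The part of the control level in the enrichment of these parts was not tested.

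Most X peaks stood alone, and close pairs were the usual kind of group. Neighbouring centres on X lay a median of 22908 bp apart (quartiles 6066 and 55063). Of 460 distances between neighbours, 150 were at most 10 kb and 41 exceeded 100 kb. A neighbour within 2000 bp was present for 76 of 461 peaks, or 16.5% (13.2 to 20.2), against 19.1% over all chromosomes. In the replicate 1 list the share was 5.10% on X (2.23 to 9.79) and 14.8% on I to V (11.8 to 18.3). In the replicate 2 list it was 12.6% (9.13 to 16.8) and 17.5% (15.2 to 20.0). These differences were not tested, and the share moves with the number of peaks listed.

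The 76 peaks formed 35 pairs and 2 groups of 3. The first group of 3 ran from X 14500734 to 14504557 and went from a peak held by both replicates (4.79-fold, 2.66 to 9.22) over a peak of replicate 2 alone (2.91-fold, 1.97 to 4.41) to a peak of neither (2.41-fold, 1.70 to 3.48). The second, from X 11470255 to 11473693, had no member held by both, and its enrichments were 3.55-fold, 2.41-fold and 2.32-fold. The strongest pair joined the peak at X 7951396 to 7952091 to a weaker one at X 7952793 to 7953401, held by replicate 2 alone and enriched 4-fold (2.51 to 6.62). Grouped peaks were held by both replicates in 27 of 76 cases (35.5%, 24.9 to 47.3) and lone peaks in 122 of 385 (31.7%, 27.1 to 36.6), shares whose intervals overlap.

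**Figure D5:**
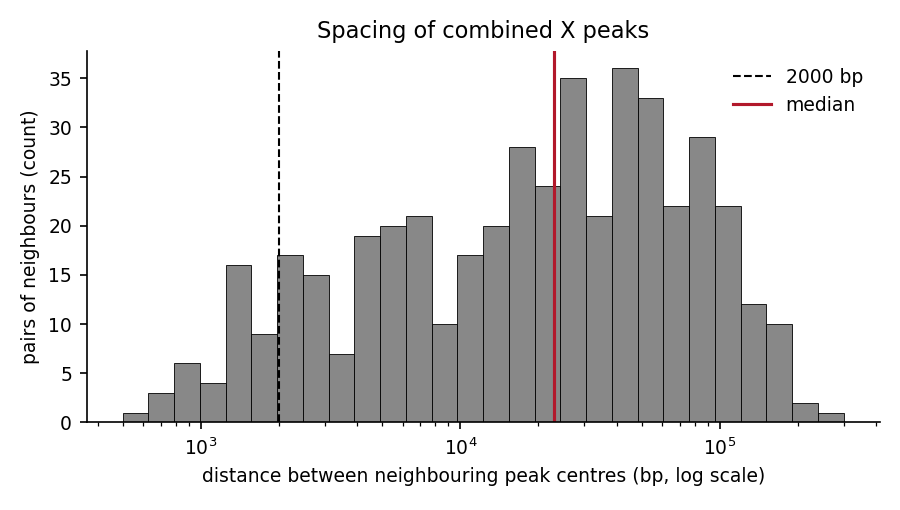
Distances between the centres of neighbouring combined X peaks, on a log scale, as counts of the 460 pairs of neighbours. The dashed line marks 2000 bp and the solid line the median of 22908 bp.

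Stretches without a combined peak were also found. The longest was the left end of the chromosome, with 324 kb before the first peak at X 324054 to 324373 (3.79-fold, 2.07 to 7.39), a site held by replicate 2 alone. The next ones were 259 kb from X 6808958 to 7068372, and 229 kb from X 1627274 to 1856220. No replicate peak lay wholly inside either of these inner stretches, and the left end held only the replicate 1 peak at X 293244 to 293624. At the other end the last listed peak, X 17642848 to 17643047, was held by neither replicate (4.71-fold, 2.05 to 12.6).

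Set against its length, X had more listed peaks than an even spread over the genome gives. It had 20.6% of the combined peaks (19.0 to 22.4), where its length gave 17.7%, a ratio of 1.17 (exact binomial test, two-sided, Benjamini-Hochberg adjusted over 6 chromosomes, adjusted p = 0.000372). The test treats peaks as independent, though some lie close together, and its p does not measure spread between replicates. The same holds for each p below. In the combined list every chromosome but I passed adjusted p 0.05 in this test, and X had the largest adjusted p of those that passed. On IV and V the share was lower than length gave, at ratios of 0.369 and 0.826 (exact binomial adjusted p = 3.79e-52 and 2.58e-05). Of the peaks held by both replicates X had 24.8% (21.4 to 28.5), a ratio of 1.41 (exact binomial adjusted p = 2.09e-05). The ratio was higher than that of X on 2 chromosomes of the combined list, at 1.55 on III and 1.24 on II (exact binomial adjusted p = 4.00e-22 and 4.98e-06). Among peaks held by both it was 1.71 on III and 1.11 on II (exact binomial adjusted p = 4.69e-10 and 0.281), so II did not pass the threshold there. In the combined list with chromosome IV, which had few peaks, left out, the ratio was 1.03 (exact binomial adjusted p = 0.455). Of the 50 strongest combined peaks X had 11 (22%, 11.5 to 36.0), and of the 100 strongest it had 16 (16%, 9.43 to 24.7). Of the 200 strongest it had 44 (22%, 16.5 to 28.4), and of the 500 strongest 118 (23.6%, 19.9 to 27.6).

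X peaks were somewhat wider and less enriched than those of the other chromosomes, by differences within the quartiles of either. Median width was 386 bp on X and 344 bp on I to V (quartiles 276 and 463). For enrichment the medians were 3.5-fold on X and 3.75-fold on I to V (quartiles 3 and 4.78). Control tags per kb of peak had a median of 54.9 on X and 51.1 on I to V, and ChIP tags per kb 193 and 189. In replicate 1, median enrichment was 4.25-fold on X and 4.67-fold on I to V, and in replicate 2 it was 4.71-fold and 4.91-fold. Differences between X and I to V in width, enrichment and tags per kb were not tested, nor was the part of the control level in them.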

How the data were processed

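Per the file headers, the authors deposited 3 peak lists made with PeakSeq on WormBase WS180, 1 per ChIP sample and 1 combined. Which aligner, caller version, settings and filters were used, and how the replicates were combined, is not given in the sources used here. Per the labels' protocols, worms were crosslinked with 2% formaldehyde, and 10% of the lysate was kept as input. Input samples had no list of their own in this work. The value the authors deposited per peak is named a q-value in the file. Because each X value equals an uncorrected binomial tail (relative tolerance 1e-09, totals below 1500), it was treated as a p-value and used to rank peaks within a list. After each X value was raised by 1 part in 100000, 0 matched. In each list 1 peak, on chromosome I, had no pair among these totals and is left out of tag values of I to V.

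Members, tests and lists were chosen with earlier results of these data known. Peaks named are the 20 strongest X peaks held by both replicates, the 3 strongest of each other class, the 3 widest, the first and last, the 3 largest groups and the 3 longest empty stretches; the 3 most enriched and the peaks missing from the combined list were added after their values were seen. Groups have centres within 2000 bp of the next. Chromosome length is the end of the last peak in any list. Scripts used Python 3.11.15, numpy 2.4.6, scipy 1.17.1 and pandas 2.3.3, and were tested on simulated data. Sequence, genes and E-boxes under the peaks were not analysed here, since no WS180 genome or annotation was used. Depth per library is unknown, so precision is given only by the tags of each peak.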

Additional observations from a re-analysis of the deposited data

How the results depend on the processing

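Of 41 alternative values for 10 results, 30 kept their direction and side of the threshold or stayed within the main value's 95% interval, 10 moved and 1 was weaker. All shares of overlap, the matched enrichment ratio (1.39 to 1.47) and rho (0.71 to 0.74) were among the 30, as was the count of 0 called parts of X, also with adjustment over 60 parts, an alternative chosen after seeing the data. For the matched ratio, leaving out the strongest X peak could change nothing, because that peak was not among the 61 matched ones. The ratio of the X share to its length fell to 1.03, no longer past the threshold, without chromosome IV, whose removal lowers it by construction (exact binomial, adjusted p = 0.455; over its alternatives p ran from 9.10e-07 to 0.455). Each replicate's deposited list was also used alone in place of the combined list, which was not made anew. The ratio of the X share to its length then ran from 1.31 to 1.37, and median width from 361 to 389 bp. The distance to the nearest peak ran from 18076 to 37222 bp (7496 bp in the combined list), and the share with a neighbour within 2000 bp from 5.10% to 12.6%. In the better-scoring 50% of X peaks, width, distance and share with a neighbour were 469 bp, 25056 bp and 8.23%. A limit of 1000 bp gave 4.34% and one of 5000 bp 38.2%. Lists with fewer peaks have wider spacing by construction; for width the cause was not tested. No paired analysis was possible because ChIP and input share their replicate numbers but the lists carry no values of the input samples by number. The planned E-box results needed a WS180 genome and were not run.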

Other observations

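The left part of X had fewer sites held by both replicates than the right part, a division chosen after the data were seen and not tested. With X cut into 10 equal parts, in the left 3 parts 30 of 143 combined peaks were held by both (20.98%, 95% interval 14.6 to 28.6), in the middle 4 58 of 164 (35.4%, 28.1 to 43.2) and in the right 3 61 of 154 (39.6%, 31.8 to 47.8). Single parts did not divide as cleanly. Part 1 had 12 of 45 held by both, part 2 had 8 of 47 and part 3 had 10 of 51. Part 6, in the middle, had 10 of 40. Peaks held by both were tested per part against an even share, and none of the 10 passed (exact binomial, smallest adjusted p = 0.369). That test takes each part alone, so it does not decide the left-right division. Replicate 1 listed 34 peaks on the left and 64 on the right, and replicate 2 listed 89 and 106. Of the replicate 2 peaks, 30 of 89 on the left overlapped a replicate 1 peak (33.7%, 24.0 to 44.5) and 61 of 106 on the right did (57.5%, 47.6 to 67.1). Combined peaks had a median enrichment of 3.52-fold on the left, 3.32-fold in the middle and 3.57-fold on the right, with medians of 51.7, 58.4 and 54.0 control tags per kb. Median combined ChIP tags were 68, 76.5 and 82.5. The part of tag level in the division was not tested.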
